A study of Mus musculus with 15 samples.

Results

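Metabotropic glutamate receptors were examined in nuclei sorted from the mouse ventral tegmental area (VTA), the midbrain region that holds the dopamine neurons of the reward system. The genes were all those of the deposited count table whose symbol was Grm2, Grm3, Grm4, Grm5, Grm7 or Grm8, which gave 6 of 35976 listed genes. All 6 passed the filter on low counts in both sets of comparisons. The mice were male heterozygous DAT-Cre animals (B6.SJL-Slc6a3tm1.1(cre)Bkmm/J) of 8 to 12 weeks. Their Cre recombinase is made in cells that express the dopamine transporter gene, and every group, controls included, received AAV5-DIO-KASH-HA in the VTA. This Cre-dependent virus places an HA-tagged protein on the nuclear envelope. After 14 days for the virus to act, the mice learned over 7 days to press a lever for food, and the food-trained group was taken after the last such session. The maintenance group went on to intravenous cocaine, taken in 1-hour sessions each day: 5 days at 0.3 mg/kg/infusion and then 10 days at 1.0 mg/kg/infusion, and was taken after the last of these. The abstinence group, which the labels name for craving, had the same cocaine schedule and then 21 days without cocaine in the home cage. HA-positive nuclei, called dopaminergic (DA) by the labels, were available after food training (n = 4 samples), maintenance (n = 3) and abstinence (n = 4). HA-negative nuclei, called non-dopaminergic (non-DA), were available after food training (n = 4). Each sample pooled the VTA of 2 mice, and no group was given saline in place of cocaine among the samples analysed here, so that cocaine, catheter surgery and elapsed time cannot be told apart.

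Metabotropic glutamate receptors are G protein-coupled receptors that sense glutamate and adjust synaptic transmission more slowly than the ion channel receptors do. Group I receptors such as mGlu5 (gene Grm5) couple to Gq, phospholipase C and calcium release, and in the VTA they are known for their part in cocaine-evoked plasticity of dopamine neurons. Group II receptors (mGlu2 and mGlu3, genes Grm2 and Grm3) and group III receptors (mGlu4, mGlu7 and mGlu8, genes Grm4, Grm7 and Grm8) couple to Gi/o proteins, lower cyclic AMP and mostly restrain transmitter release from nerve terminals. mGlu3 is also known from astrocytes and oligodendrocyte precursors.

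Total counts ranged from 25813697 in food-trained DA replicate 3 to 59046618 in abstinence replicate 2. Levels are given as CPM, counts scaled to a common library size. The summed CPM of 13 dopamine neuron markers ranged from 5966 to 12762 in the 11 DA libraries and from 450 to 662 in the non-DA libraries. The non-DA nuclei were sorted without a neuronal marker. Their 10 oligodendrocyte markers summed to between 9848 and 23351 CPM, against 1760 to 2806 CPM in food-trained DA nuclei, so the label of neurons does not describe their whole content. The slope of log2 CPM on the GC content of genes set the maintenance libraries apart: it was -0.0379 to -0.0225 per percent GC there and -0.0166 to 0.0206 in the other DA libraries. The remaining non-DA libraries ran from 0.0211 to 0.0325, and non-DA replicate 2 lay at -0.0247. In such bulk samples fewer nuclei of a type and less RNA per nucleus cannot be told apart. The p-values measure the spread between these pooled samples.

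Grm5 and Grm7 were the most abundant of the 6 receptors in every group, when CPM were divided by the length of the longest annotated transcript in kilobases. In food-trained DA nuclei, Grm5 stood at 40.8 ± 5.12 CPM per kb (SD, n = 4) and Grm7 at 33.4 ± 14.6. Grm5 was above Grm7 in 3 of 4 libraries, and the ranges of this pair overlapped. The levels of Grm2 (6.95), Grm3 (6.59) and Grm8 (5.50) followed with overlapping neighbours, and Grm4 was lowest at 3.28 CPM per kb, below the range of Grm8. The upper pair was separate from the lower genes: the lowest Grm7 value was 19.7 CPM per kb and the highest Grm2 value was 19.1. In maintenance the order of means was Grm5 (47.4), Grm7 (39.3), Grm3 (8.99), Grm8 (7.02), Grm4 (6.12) and Grm2 (2.69), with Grm2 below the range of Grm4. In abstinence it was Grm5 (48.2), Grm7 (30.6), Grm3 (13.9), Grm2 (8.01), Grm8 (7.63) and Grm4 (5.18), and each range overlapped that of the next gene. In non-DA nuclei Grm7 came first at 53.6 ± 7.55 CPM per kb and was above Grm5, at 38.7 ± 9.49, in 4 of 4 libraries. Grm3 came next there at 32.2 ± 8.98, ahead of Grm2 (13.5), Grm8 (11.1) and Grm4 (10.2), and the ranges of neighbours overlapped.

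**Figure D1:**
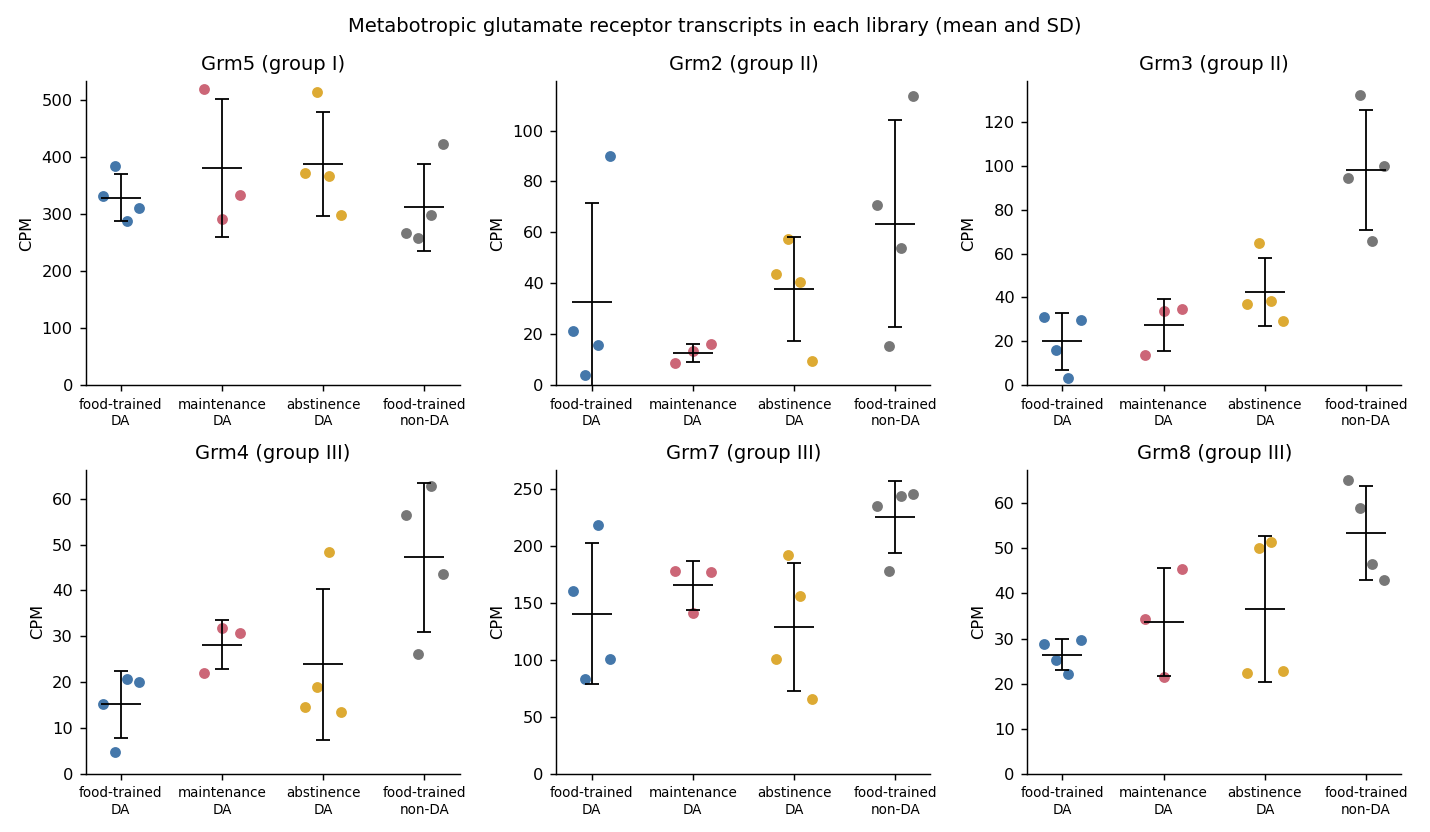
CPM of each receptor gene in the 15 libraries (points), with the mean and SD of each group (bars, cut at 0 where the SD exceeds the mean). Grm3 lies between 3.43 and 31.3 CPM in food-trained DA nuclei and between 65.6 and 132 CPM in non-DA nuclei, whereas the 4 groups of Grm5 overlap.

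The first comparison asked how the receptor genes differ between DA and non-DA nuclei of food-trained mice. Grm3 and Grm8 were lower in DA nuclei, by 4.85-fold and 2.01-fold, and passed the test at an adjusted p under 0.05 (edgeR quasi-likelihood F-test with Benjamini-Hochberg adjustment over 19786 genes). The other 4 receptors did not pass. Of all genes tested, 12.8% passed in either direction, and 9.17% passed as lower in DA nuclei. The log2 fold change was negative for 5 of 6 receptors, with a median of -0.97, against -0.21 over all genes. The ranges of 3 of 6 receptors (Grm3, Grm4 and Grm8) lay wholly below those of non-DA nuclei, as did those of 19.7% of all genes. The same 3 had an unadjusted p under 0.05, against 24.3% of all genes. When replicate numbers entered the fit as a block, Grm3 (adjusted p = 0.0419) and Grm4 (adjusted p = 0.0494) passed with edgeR's test and Grm8 (adjusted p = 0.107) did not.

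Grm5 is the group I gene of the set (GRCm38 chr7:87584168-88134907, plus strand, longest transcript 8.05 kb). In food-trained DA nuclei it gave 331, 384, 288 and 311 CPM in replicates 1 to 4. Non-DA nuclei gave 268, 257, 299 and 423 CPM. The highest and the lowest of these 8 values were both non-DA, so the ranges overlapped. Between DA and non-DA nuclei, Grm5 had a log2 fold change of 0.086 (SE 0.21, 95% interval -0.38 to 0.56, edgeR adjusted p = 0.863). That interval leaves room for a modest difference in either direction. The sign was negative with a GC correction (-0.014) and with both food-trained libraries numbered 2 left out (-0.083).

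Grm2, whose product acts mainly as a presynaptic autoreceptor, was the more variable of the group II pair in food-trained mice (GRCm38 chr9:106643095-106656082, minus strand, longest transcript 4.71 kb with 56.9% GC). Food-trained DA replicates gave 21.1, 4.04, 15.9 and 90.0 CPM, and non-DA replicates gave 70.7, 15.4, 54.0 and 113 CPM. Replicate 4 was highest and replicate 2 was lowest in both populations. The ranges overlapped, although the DA library was the lower one in 4 of 4 same-numbered pairs. Grm2 thus had a log2 fold change of -0.94 (SE 0.87, 95% interval -2.91 to 1.02, edgeR adjusted p = 0.594). Without food-trained DA replicate 4 it was -2.20 (edgeR adjusted p = 0.0905), and with the replicate block it was -1.44 (edgeR adjusted p = 0.0766). It was smaller without food-trained DA replicate 2 (-0.58, edgeR adjusted p = 0.696) and without non-DA replicate 4 (-0.50, edgeR adjusted p = 0.860).

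Grm3 (GRCm38 chr5:9485541-9725170, minus strand, longest transcript 3.05 kb) differed most between the populations among the 6 receptors. Food-trained DA replicates gave 31.3, 16.1, 3.43 and 29.6 CPM, and non-DA replicates gave 94.5, 132, 65.6 and 99.98 CPM. Every DA library was below every non-DA library, and DA replicate 3 was the lowest of all 15 libraries. Its log2 fold change was -2.28 (SE 0.59, 95% interval -3.60 to -0.95, edgeR adjusted p = 0.0330). With edgeR's test the call was kept without DA replicate 1, 3 or 4 and lost without DA replicate 2 (adjusted p = 0.0721) and without non-DA replicate 1 (adjusted p = 0.0750), 2 (adjusted p = 0.0808), 3 (adjusted p = 0.0517) or 4 (adjusted p = 0.0715). It stayed between -2.57 and -1.90 on the log2 scale when single libraries were left out, and was -2.01 (edgeR adjusted p = 0.152) without both libraries numbered 2.

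Summed levels of glial and vascular markers were also lower in DA nuclei, with fewer single genes past the test. The 8 astrocyte markers summed to between 496 and 880 CPM in food-trained DA nuclei and to between 1540 and 2999 CPM in non-DA nuclei, and 5 of 8 passed as lower in DA nuclei. The other 3 did not pass, and 2 of them had positive log2 fold changes (Gfap at 0.0098 and Aldh1l1 at 0.52). The 6 oligodendrocyte precursor markers summed to between 22.2 and 79.7 CPM against 260 to 412 CPM, and 1 of 6 passed as lower. The defining precursor gene Pdgfra was at 0 in food-trained DA replicates 2 and 3, at 3.16 CPM in replicate 1 and at 12.2 CPM in replicate 4. Non-DA nuclei held between 50.6 and 118 CPM of Pdgfra. The 10 oligodendrocyte markers had 7 that passed as lower in DA nuclei, and the 8 microglia markers, at 525 to 957 CPM against 1644 to 3241 CPM, had 6. The 8 vascular markers summed to 9.68 to 185 CPM against 232 to 454 CPM, and none of them passed with edgeR's test (2 had an unadjusted p under 0.05). The part of these cells in the Grm3 difference was not tested.

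The sequence upstream of the RefSeq start and of all GENCODE transcripts is shown for both genes that passed the test, Grm3 here and Grm8 below. A RefSeq window (GRCm38.p6) matched 4 of 6 receptor genes. The Grm3 window spans chr5:9725353-9725602 on the minus strand, has 250 bases and holds 62.4% GC. Capitals mark a GC box, GGGCGG, which was searched on both strands.
Grm3: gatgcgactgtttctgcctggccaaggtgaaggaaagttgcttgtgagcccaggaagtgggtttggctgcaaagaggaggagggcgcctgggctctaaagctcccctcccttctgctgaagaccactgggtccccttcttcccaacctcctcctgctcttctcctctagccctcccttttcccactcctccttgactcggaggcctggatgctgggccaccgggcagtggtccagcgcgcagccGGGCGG
The single GC box of Grm3 lies at the 3′ end of the window, and 32.7% of 32851 windows of that length in the RefSeq table hold at least 1. A TATA box (TATAAA, in 12.4% of windows) and a cyclic AMP response element (TGACGTCA, in 1.5%) had 0 matches in it.

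Grm4 led the group III genes in the size of its difference (GRCm38 chr17:27422387-27521403, minus strand, longest transcript 4.61 kb with 61.7% GC). Its product is a presynaptic receptor with a high affinity for glutamate. Food-trained DA replicates gave 15.2, 4.67, 20.6 and 20.0 CPM, and non-DA replicates gave 56.4, 26.04, 62.7 and 43.6 CPM. The groups did not overlap, and replicate 2 was lowest in both. Grm4 had a log2 fold change of -1.63 (SE 0.49, 95% interval -2.73 to -0.53, edgeR adjusted p = 0.0602). This missed the threshold, which was passed with the GC correction (adjusted p = 0.0446 with edgeR), with DESeq2's test (adjusted p = 0.0119), with limma-voom (adjusted p = 0.0493), with a filter of at least 10 counts in every library (adjusted p = 0.0373 with edgeR) and without DA replicate 2 (adjusted p = 0.0370 with edgeR).

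Grm7, whose product sits in the active zone of presynaptic terminals and responds only to high glutamate, was the most abundant of the Gi/o-coupled receptors per kilobase (GRCm38 chr6:110645581-111567230, plus strand, longest transcript 4.21 kb). DA replicates after food training gave 161, 83.1, 218 and 100.4 CPM. Non-DA replicates gave 235, 178, 244 and 245 CPM. Of the DA libraries, replicate 3 alone entered the non-DA range, and the DA library was below the non-DA library of its number in 4 of 4 pairs. For Grm7 the log2 fold change was -0.67 (SE 0.31, 95% interval -1.36 to 0.021, edgeR adjusted p = 0.221). The call was gained without food-trained DA replicate 3 (log2 fold change -0.94, edgeR adjusted p = 0.0409) and with limma-voom (adjusted p = 0.0393), but not with the replicate block (log2 fold change -0.76, edgeR adjusted p = 0.132).

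Grm8 encodes another presynaptic group III receptor (GRCm38 chr6:27275119-28135178, minus strand, longest transcript 4.80 kb). Food-trained DA replicates gave 28.7, 25.2, 22.05 and 29.6 CPM, and non-DA replicates gave 65.2, 58.9, 46.5 and 43.0 CPM. All DA values were below all non-DA values. Grm8 had a log2 fold change of -1.01 (SE 0.23, 95% interval -1.53 to -0.48, edgeR adjusted p = 0.0200). Besides the block, the call was lost without non-DA replicate 1 (edgeR adjusted p = 0.101), without both libraries numbered 2 (edgeR adjusted p = 0.0693), in a fit of all 15 libraries (edgeR adjusted p = 0.0682) and with limma-voom (adjusted p = 0.0861). The 6 GABA neuron markers summed to 161 to 250 CPM in food-trained DA nuclei and to 244 to 309 CPM in non-DA nuclei, and none passed with edgeR's test (2 had an unadjusted p under 0.05). Their part in the Grm8 difference, and that of the glial markers above, was not tested.

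RefSeq lists 3 windows for Grm8, and the most upstream one, cut where the GENCODE gene begins, spans chr6:28135179-28135396 on the minus strand, has 218 bases and holds 68.3% GC. Capitals again mark GGGCGG, searched on both strands.
Grm8: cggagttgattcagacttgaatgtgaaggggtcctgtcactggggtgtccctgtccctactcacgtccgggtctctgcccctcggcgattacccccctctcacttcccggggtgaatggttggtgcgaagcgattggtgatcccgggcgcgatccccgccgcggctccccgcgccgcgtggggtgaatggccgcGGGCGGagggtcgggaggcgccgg
As for Grm3, a single GC box was found, and 28.2% of 32851 windows cut to the same length hold at least 1. TATAAA (in 9.9% of windows) and TGACGTCA (in 1.1%) had 0 matches. These matches are descriptions of the letters and say nothing of bound factors.

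**Figure D2:**
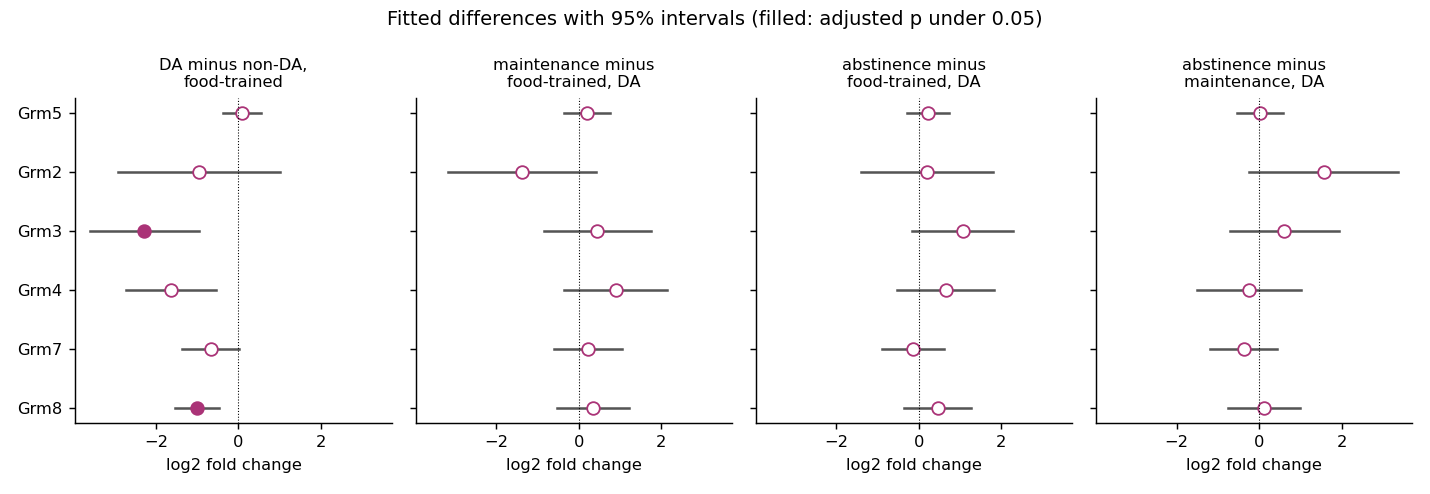
Log2 fold changes of the 6 receptor genes in the 4 comparisons (points), with 95% intervals from the edgeR fit (lines). Filled points passed an adjusted p under 0.05, which were Grm3 at -2.28 and Grm8 at -1.01 in the comparison of DA with non-DA nuclei.

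The makeup of the receptor set differed between the populations. The summed level of the 6 genes was 79.9 to 103 CPM per kb in food-trained DA libraries and 139 to 186 CPM per kb in non-DA libraries. Group I, which here is Grm5 alone, took 43.2% ± 11.2 (SD, n = 4) of that sum in DA nuclei and 24.1% ± 3.18 (n = 4) in non-DA nuclei. The lowest share of Grm5 in any of the 11 DA libraries was 35.4% and the highest in non-DA nuclei was 28.3%. Group II took 13.7% ± 10.6 in food-trained DA nuclei and 28.6% ± 5.00 in non-DA nuclei, with overlapping ranges. Group III took 43.1% ± 12.9 and 47.2% ± 5.91. Grm7 took nearly the same mean share in both, 34.1% ± 13.0 and 33.7% ± 3.55, although its share in DA libraries ran from 23.4% to 51.2%. These shares depend on one another, since the 6 must sum to the whole, and they were compared without a test.

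**Figure D3:**
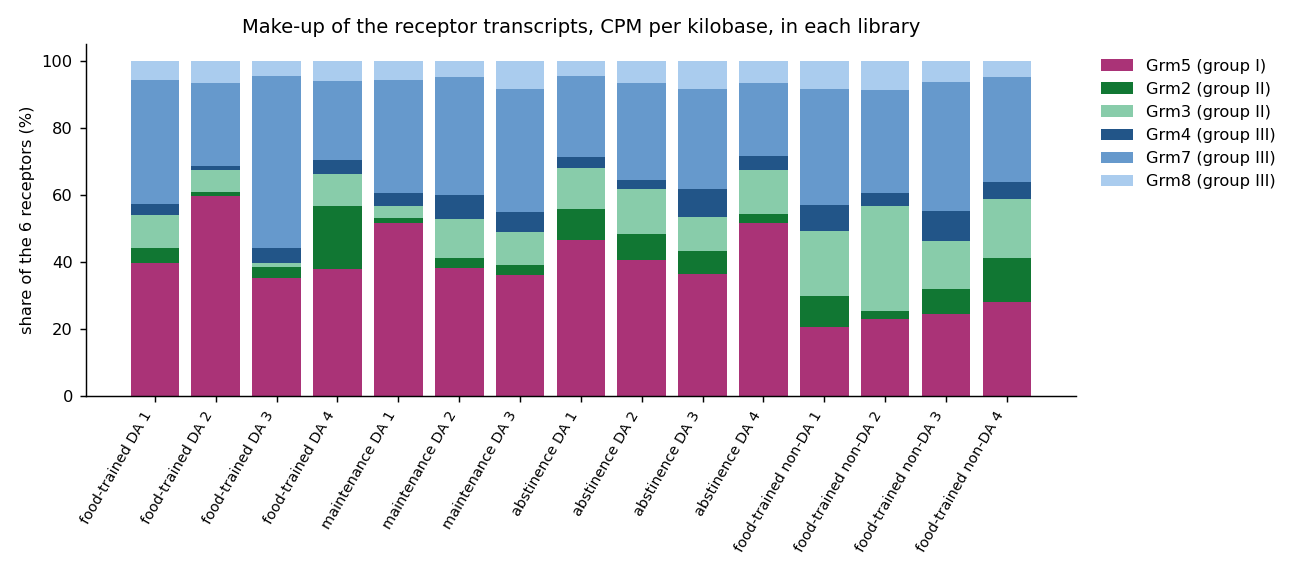
Share of each receptor gene in the summed CPM per kb of the 6 genes, by library. Grm5 takes between 35.4% and 59.8% of the sum in DA libraries and between 20.7% and 28.3% in non-DA libraries.

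The second set of comparisons asked whether receptor RNA in DA nuclei changed over the cocaine schedule. With edgeR's test, 0 of 6 receptors passed between any pair of stages, or in a test for any difference among the 3 stages, and 0 of 6 had an unadjusted p under 0.05. DESeq2's test and limma-voom likewise passed 0 of 6. Few genes passed at all: 0.131% of 19060 between maintenance and food training, 0% between abstinence and food training, 0.178% between abstinence and maintenance, and 0.0839% for any difference. At an unadjusted p under 0.05 these shares were 11.6%, 4.3%, 9.92% and 7.85%. The intervals below are wide, so that changes of about their size were not detectable with these samples. The stage comparisons share libraries with one another and with the comparison of populations.

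Grm5 gave 519, 292 and 333 CPM in maintenance replicates 1 to 3 and 371, 514, 367 and 298 CPM in abstinence replicates 1 to 4. Maintenance replicate 1 and abstinence replicate 2 were above all food-trained DA libraries, and the others lay within the food-trained range of 288 to 384 CPM. From food training, Grm5 differed by a log2 fold change of 0.21 (SE 0.26, 95% interval -0.35 to 0.76) at maintenance and 0.23 (SE 0.24, 95% interval -0.29 to 0.74) at abstinence. Of the 6 receptors, Grm5 had the narrowest intervals in these comparisons.

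Grm2 gave 8.81, 13.2 and 16.0 CPM at maintenance and 43.8, 57.3, 40.7 and 9.28 CPM at abstinence. Its maintenance values fell within the wide food-trained range of 4.04 to 90.0 CPM, and abstinence replicate 4 lay among the maintenance values. Grm2 had log2 fold changes of -1.37 (SE 0.83, 95% interval -3.16 to 0.43, edgeR adjusted p = 0.586) between maintenance and food training, 0.20 (SE 0.74, 95% interval -1.40 to 1.79) between abstinence and food training, and 1.56 (SE 0.84, 95% interval -0.24 to 3.37, edgeR adjusted p = 0.582) between abstinence and maintenance. A single library weighed on the first of these, which was -0.12 without food-trained replicate 4. Libraries with low GC slopes had low Grm2 values: the 3 maintenance libraries, food-trained DA replicate 2 (4.04 CPM) and, among non-DA libraries, replicate 2 (15.4 CPM against 54.0 to 113 CPM in the others). Some libraries with slopes near or above 0 were about as low: abstinence replicate 4 (9.28 CPM, slope -0.00116) and food-trained DA replicates 3 (15.9 CPM, slope -0.0033) and 1 (21.1 CPM, slope 0.0172). A further fit of all 15 libraries held a term for 4 libraries of low GC slope, the 3 maintenance libraries and non-DA replicate 2. In it the difference between maintenance and food training reversed to 0.99 and that between abstinence and maintenance to -0.79. Only non-DA replicate 2 separates this term from the stage. The reversal thus takes the shift of that library to hold in DA nuclei, which was not tested. With a GC correction of the counts, these differences kept their signs at -1.002 and 1.25.

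Grm3 gave 13.6, 33.9 and 34.7 CPM at maintenance and 37.1, 64.8, 38.4 and 29.1 CPM at abstinence. All abstinence libraries but replicate 4 were above the highest food-trained DA value of 31.3 CPM. At abstinence Grm3 differed from food training by a log2 fold change of 1.06 (SE 0.57, 95% interval -0.16 to 2.28, unadjusted p = 0.0831 and adjusted p = 0.999974 by edgeR), and that between maintenance and food training was 0.45 (SE 0.60, 95% interval -0.85 to 1.75). As a share of the 6 receptors, Grm3 took 12.3% ± 1.56 (n = 4) at abstinence, with a range of 10.1% to 13.5%, against 1.11% to 9.92% after food training. The maintenance range of 3.58% to 11.7% overlapped with both. Over the same groups the astrocyte markers summed to 496 to 880 CPM after food training and 482 to 695 CPM at abstinence, and the precursor markers to 22.2 to 79.7 CPM and 46.2 to 76.9 CPM. The vascular markers summed to 9.68 to 185 CPM and 42.6 to 116 CPM. Of the precursor markers, 4 of 6 had positive log2 fold changes at abstinence, with a median of 0.71 over the list. Among these 4 were Pdgfra (13.7 CPM against 3.83 CPM after food training) and Cspg4 (6.48 against 2.79 CPM). The other 2 were lower, Gpr17 (2.98 against 6.82 CPM) and Sox10 (3.16 against 5.86 CPM). The vascular markers divided evenly, 4 of 8 positive and 4 of 8 negative, with a median of 0.23: Vtn was at 29.5 against 10.9 CPM and Rgs5 at 29.2 against 31.1 CPM. None of these markers passed, and the lowest edgeR adjusted p of all genes in this comparison was 0.999974. The part of these cells in the Grm3 values was not tested.

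Grm4 gave 22.1, 31.8 and 30.7 CPM at maintenance, all above the food-trained DA range of 4.67 to 20.6 CPM. Of all genes, 4.31% had maintenance ranges wholly above those of food training. At maintenance the log2 fold change was 0.90 (SE 0.58, 95% interval -0.36 to 2.15, edgeR adjusted p = 0.634). It was 0.58 without food-trained DA replicate 2, 1.382 with the GC correction and 1.94 with the term for low GC slope, and none of these passed. Of the GABA neuron markers, 3 of 6 had positive log2 fold changes at maintenance, among them Gad1 (88.7 against 39.0 CPM, unadjusted p = 0.0380) and Gad2 (123 against 61.5 CPM, unadjusted p = 0.0181), and none passed with edgeR's test. The other 3 were lower: Slc32a1 (65.1 against 93.8 CPM), Tal1 (2.35 against 4.43 CPM) and Gata2 (0 against 1.56 CPM, edgeR unadjusted p = 0.00918). The part of these 6 markers in the Grm4 values was not tested. Abstinence libraries gave 14.5, 19.0, 48.4 and 13.5 CPM, so that replicate 3 stood apart and the other values lay within the food-trained range. The log2 fold change at abstinence was 0.65 (SE 0.54, 95% interval -0.53 to 1.82), and without abstinence replicate 3 it was 0.040.

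Grm7 gave 178, 141 and 177 CPM at maintenance and 101, 192, 156 and 66.0 CPM at abstinence, all but the last within the food-trained DA range of 83.1 to 218 CPM. Its log2 fold change from food training was 0.23 (SE 0.38, 95% interval -0.59 to 1.04) at maintenance and -0.15 (SE 0.35, 95% interval -0.90 to 0.61) at abstinence. Grm8 gave 34.2, 21.4 and 45.4 CPM at maintenance and 22.3, 50.0, 51.3 and 22.8 CPM at abstinence. Abstinence replicates thus formed a low and a high pair, and the low pair lay within the food-trained range of 22.05 to 29.6 CPM. The GABA neuron and glutamate neuron markers both divided the same libraries. The sum of the 6 GABA neuron markers was 448 and 414 CPM in abstinence replicates 2 and 3, where Grm8 was high, and 209 and 231 CPM in replicates 1 and 4. At maintenance that sum was 378, 183 and 355 CPM in replicates 1 to 3, lowest where Grm8 was lowest. The 3 glutamate neuron markers summed to 963 and 819 CPM in abstinence replicates 2 and 3, to 555 and 428 CPM in replicates 1 and 4, and to 695, 275 and 561 CPM at maintenance. The part of either list in the Grm8 values was not tested. For Grm8 the log2 fold change was 0.34 (SE 0.40, 95% interval -0.52 to 1.21) at maintenance and 0.46 (SE 0.38, 95% interval -0.35 to 1.27) at abstinence. Over the 6 receptors the median log2 fold change was 0.28 at maintenance and 0.34 at abstinence, against -0.0072 and 0.043 over all genes. At abstinence the median was 0.71 for the GABA neuron markers (6 of 6 positive) and -0.32 for the dopamine neuron markers (13 of 13 negative), and none of either list passed with edgeR's test (0 and 2 had an unadjusted p under 0.05).

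The proteins through which these receptors act were followed in 4 lists. Between DA and non-DA nuclei, 1 of 16 scaffolds and synaptic partners passed, as higher in DA nuclei, with a list median of 0.17. Of all genes, 3.63% passed as higher. The scaffold gene was Elfn1, a postsynaptic adhesion protein that recruits group III receptors to the facing terminal, at 56.0, 79.5, 54.1 and 104 CPM in DA nuclei and 27.9, 8.998, 21.2 and 39.8 CPM in non-DA nuclei. The ranges of Elfn1 did not overlap, and its log2 fold change was 1.60 (SE 0.44, edgeR adjusted p = 0.0438). The call was lost with the replicate block (edgeR adjusted p = 0.0768), with no filter beyond 1 count (edgeR adjusted p = 0.0590), with limma-voom (adjusted p = 0.0503), without both libraries numbered 2 (edgeR adjusted p = 0.0754) and without DA replicate 2 or 4 or non-DA replicate 1 or 3 (edgeR adjusted p = 0.0735, 0.0827, 0.0905 and 0.116).

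Of 15 genes of the Gq arm, 0 passed between the populations with edgeR's test, against 12.8% of all genes. An unadjusted p under 0.05 was reached by 3 of 15, against 24.3% of all genes, and the list median was -0.45. Gnaq, the gene for the Gq alpha subunit and the most abundant of the list, was at 175 ± 55.6 CPM in DA and 154 ± 26.9 CPM in non-DA nuclei. Of 19 genes of the Gi/o arm, 1 passed as higher and 1 as lower in DA nuclei, against 3.63% and 9.17% of all genes. The log2 fold change was positive for 8 of the 19 and negative for 11, with a list median of -0.18. Gnao1, the gene for the Go alpha subunit, was at 76.5, 62.3, 89.6 and 84.0 CPM in DA nuclei against 225, 153, 196 and 210 CPM in non-DA nuclei. Its log2 fold change of -1.32 had an SE of 0.19 (adjusted p = 0.00670 with edgeR), and it passed under each alternative that was run. Gnb1, a G protein beta subunit and the most abundant gene of this list, was higher in DA nuclei at 483 ± 56.1 CPM against 292 ± 53.3 CPM. That is a log2 fold change of 0.74, with an SE of 0.19 (adjusted p = 0.0336 with edgeR). The Gnb1 call was lost with the replicate block (edgeR adjusted p = 0.0546), with limma-voom (adjusted p = 0.0574), without both libraries numbered 2 (edgeR adjusted p = 0.0640) and without DA replicate 1 or 4 or non-DA replicate 1 or 3 (edgeR adjusted p = 0.0516, 0.0584, 0.106 and 0.0863).

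Of 10 genes for glutamate uptake, exchange and metabolism, 1 passed as higher and 2 passed as lower in DA nuclei. The shares over all genes were 3.63% and 9.17%. The log2 fold change was positive for 4 of the 10 and negative for 6, with a list median of -0.35. Slc1a3, the glutamate transporter GLAST of astrocytes, was at 45.6 to 63.4 CPM in DA nuclei and 242 to 543 CPM in non-DA nuclei. Its log2 fold change was -3.00 (SE 0.28, edgeR adjusted p = 0.00135). Folh1, which makes the peptidase that cleaves N-acetylaspartylglutamate, an agonist of mGlu3, was at 2.46 to 12.8 CPM against 49.7 to 89.5 CPM. Its log2 fold change was -2.76, with an SE of 0.50 (adjusted p = 0.00670 with edgeR). Slc1a6, the neuronal glutamate transporter EAAT4, was higher in DA nuclei, at 64.0 ± 3.89 CPM against 38.1 ± 3.24 CPM, a log2 fold change of 0.76 with an SE of 0.18 (adjusted p = 0.0212 with edgeR). Slc1a6 no longer passed with the replicate block, alone (edgeR adjusted p = 0.114) or with the GC correction (edgeR adjusted p = 0.0888), with no filter beyond 1 count (edgeR adjusted p = 0.0519), with at least 10 counts in every library (edgeR adjusted p = 0.0501) or without non-DA replicate 1 or 4 (edgeR adjusted p = 0.0613 and 0.0502), and the call of Folh1 was lost in the fit of all 15 libraries (edgeR adjusted p = 0.111). Slc3a2, the shared subunit of the cystine-glutamate exchanger and the most abundant gene here, was at 684 ± 253 CPM against 391 ± 94.5 CPM and did not pass (edgeR adjusted p = 0.169). Between stages, 0 genes of these 4 lists passed with edgeR's test. At an unadjusted p under 0.05, 6 of 16 scaffold genes lay past the threshold between maintenance and food training (11.6% of all genes) and 6 of 16 between abstinence and maintenance (9.92% of all genes).

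**Figure D4:**
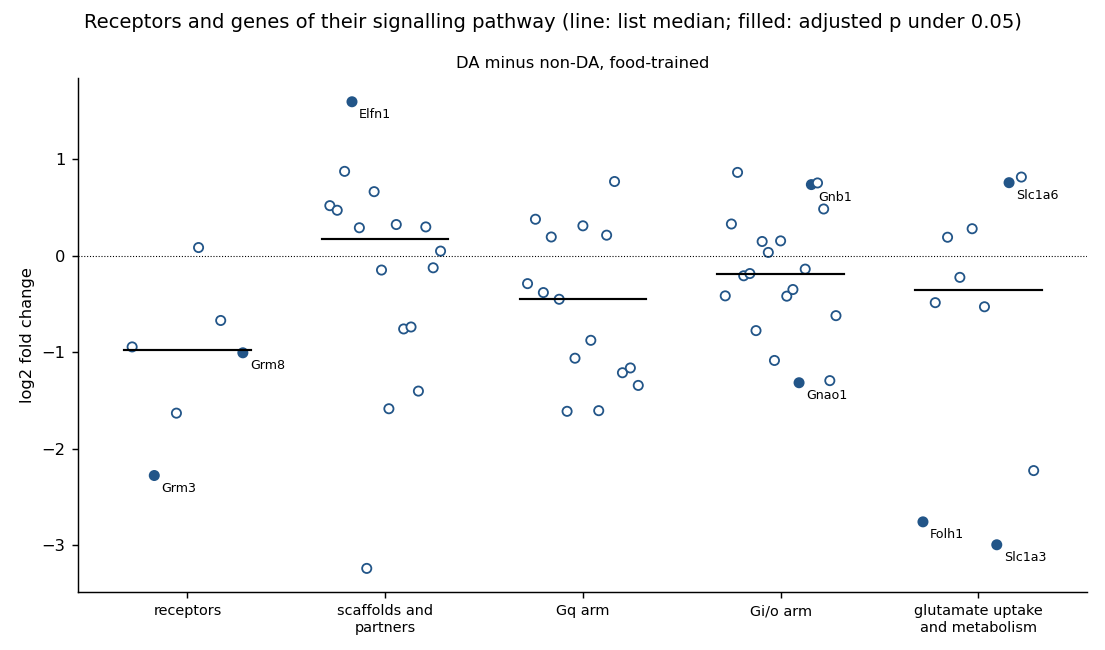
Log2 fold changes between DA and non-DA nuclei of food-trained mice for the receptors and the genes of the 4 lists (points), with the median of each (lines) and named filled points for an adjusted p under 0.05. The receptor median of -0.97 is below the medians of the 4 lists, which run from -0.45 to 0.17.

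Over all 15 libraries, the genes nearest to each receptor in pattern were taken as the 2 with the highest Pearson r of log2 CPM among 13787 genes. These correlations include the difference between populations and share the libraries' depth and GC slopes, and they are given as descriptions. Grm3 had the closest neighbours, Vtn (r = 0.948) and Exd2 (r = 0.936). Vtn is also one of the vascular markers. Grm8 lay nearest to Thbs4 (r = 0.926) and Samsn1 (r = 0.906), whose mean levels were only 1.37 and 1.52 CPM. Grm2 lay nearest to Fads1 (r = 0.904) and Xylt2 (r = 0.893), and Grm4 to Phf24 (r = 0.900) and Sik3 (r = 0.888). Grm7 had Npr1 (r = 0.886) and Hs3st4 (r = 0.852). Grm5 had the weakest nearest pair, Edem3 (r = 0.828) and Fut9 (r = 0.821). Among the receptors themselves, r was highest between Grm4 and Grm7 (0.727) and between Grm3 and Grm8 (0.688). Grm5 was apart from the rest, with r between -0.229 and 0.0356 with the other 5 genes.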

How the data were processed

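RNA of sorted nuclei was sequenced in 15 samples. Per the labels' protocols, sorting used an HA antibody and DAPI, and a low-input kit served for the libraries. The deposited values are whole-number counts for each gene symbol. The submitters' processing notes name Trim Galore 0.6.7, cutadapt 1.18, STAR 2.7.10a, StringTie 2.1.5 and DESeq2 1.38.3, and the builds mm10 and GRCm38. The role of each tool, the annotation and any use of strand are not given in the sources used here, so overlapping and antisense genes are uncertain. A second deposited table repeated the raw counts of 10 columns, with 0 cells that differed, and was read only for that comparison.

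Groups were read from the sample titles. The software was edgeR 4.0.16, DESeq2 1.42.0 and limma 3.58.1 under R 4.3.3, with Python 3.11.15. After filterByExpr (minimum count 10) and TMM scaling, genes were tested by the quasi-likelihood F-test of edgeR (two-sided), and those with a Benjamini-Hochberg adjusted p below 0.05 passed. The 8 food-trained libraries gave the comparison of populations and the 11 DA libraries those of stages. CPM use the TMM factors of all 15 libraries. Without molecular identifiers, precision computed from counts covers counting error only. Positions, lengths and GC content came from GENCODE M21 on GRCm38, with GC values for 84.9% and 85.2% of genes tested. Steps were tested on simulated data.

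The labels do not say what a replicate number marks. Across the food-trained populations, same-numbered libraries deviated together, with r of 0.116 to 0.262 in 4 pairs. Each DA library was closest to its own number, whereas non-DA replicate 1 was closer to DA replicate 4, with r of 0.146. From these data the numbers were taken as pairs in the replicate block and where same-numbered libraries are compared. The main test of the populations had no block and treated the libraries as unpaired.

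The receptors, lists, tests and alternatives were chosen with earlier results of these data known. All 6 receptors are named, with the list genes past the threshold (up to 6 per list), the most abundant gene of each list (1 is not reported here), and the 2 genes nearest to each receptor in pattern. Of the listed genes, 3 were matched through RefSeq synonyms. Alternatives were other scalings, filters, tests and sets of libraries, a GC correction (an offset from each library's slope), the replicate block and leaving out each library. A further one, fitted to all 15 libraries, held a term for 4 of low GC slope, the 3 maintenance libraries and non-DA replicate 2. Leaving out both libraries numbered 2 was chosen after seeing the data.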

Additional observations from a re-analysis of the deposited data

Results flagged for a closer look

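Single libraries stood apart from their group in 2 of 18 groups of 4 that were examined for this, where chance gives about 1 in 20. Abstinence replicate 3 had 48.4 CPM of Grm4, far above the 13.5 to 19.0 CPM of the other abstinence libraries, with a gap of 0.842 of the group's range. Non-DA replicate 2 had 178 CPM of Grm7, below the 235 to 245 CPM of the other non-DA libraries, with a gap of 0.841 of the range. That library also had the low GC slope (-0.0247), and the part of the slope in its Grm7 value was not tested.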

How the results depend on the processing

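Between the populations, 2534 genes passed (719 higher and 1815 lower in DA nuclei), against 1643 (916 and 727) with at least 10 counts in every library, 3883 (1505 and 2378) with DESeq2's test, 4266 with limma-voom, 775 (413 and 362) with the replicate block and 840 with the block and a GC correction. Leaving out single libraries gave 1900 to 3740. The numbers of stages do not pair the samples (r of -0.351 to 0.110), and the replicate block there gave 0, 2 and 0 calls for maintenance against food training, abstinence against maintenance and any difference, in place of 25, 34 and 16. With the GC correction added, the block gave 1, 2 and 0. DESeq2's test gave 992, 792 and 340, and 145 for abstinence against food training in place of 0. The filter of 10 counts gave 109, 69 and 41, and the term for 4 libraries of low GC slope 0, 1 and 0. Limma-voom gave 9 for maintenance against food training, upper quartile scaling gave 22 for abstinence against maintenance, the fit of 15 libraries gave 15 there and 9 for any difference, and the GC correction gave 5 for any difference. Leaving out single libraries gave 5 to 78, 6 to 73 and 1 to 23, and 0 to 0 for abstinence against food training. Without a call in either case, some log2 fold changes turned sign. For Grm5 these were the population difference (-0.014 with the GC correction, -0.083 without both libraries numbered 2, and -0.0030 to 0.27 over single libraries left out), maintenance against food training (-0.020 with the GC correction, -0.094 with the block and the GC correction, -0.072 to 0.33 over left-out libraries) and abstinence against maintenance (-0.012 with DESeq2 size factors and with DESeq2's test, -0.037 with upper quartile scaling, -0.0073 with the filter of 10 counts, -0.32 with the term for low GC slope, -0.13 to 0.30 over left-out libraries). The term for low GC slope turned Grm2 to 0.99 at maintenance and -0.79 for abstinence against maintenance, and Grm3 to -0.18 at maintenance. Only non-DA replicate 2 separates this term from the stage. Grm8 at maintenance was -0.042 with the block and the GC correction. Grm7 at abstinence was 0.031 with limma-voom. Over left-out libraries, Grm2 ran from -0.17 to 1.44 and Grm7 from -0.39 to 0.15 at abstinence, and Grm8 from -0.0996 to 0.39 for abstinence against maintenance. The causes were not tested. Each receptor had at least 95 counts in each library.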

Other observations

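Within the scaffold list, Calm3 and Elfn2 were low at maintenance beside food training, and they are named here after their values were seen. Calm3, one of the calmodulin genes, gave 81.5, 137 and 106 CPM at maintenance, 216 to 366 CPM after food training and 212 to 366 CPM at abstinence. The maintenance values lay below both groups, as for 4.14% and 7.68% of all genes in these comparisons, and the log2 fold changes did not pass (-1.43 against food training, edgeR adjusted p = 0.0796; 1.49 for abstinence against maintenance, edgeR adjusted p = 0.0635). Elfn2, another adhesion partner of presynaptic mGlu receptors, gave 22.1, 57.1 and 30.5 CPM at maintenance and 123 to 188 CPM after food training, and its abstinence range of 44.7 to 139.6 CPM overlapped with maintenance. Against food training it did not pass (log2 fold change -1.99, edgeR adjusted p = 0.112). Non-DA replicate 2, the food-trained library with a GC slope close to that of maintenance, was also low in Calm3 (83.8 CPM against 152 to 205 CPM) and in Elfn2 (37.7 CPM against 121 to 165 CPM) beside the other non-DA libraries. Food-trained DA replicate 2, whose slope of -0.0166 was the lowest of its group, was not low, at 284 CPM of Calm3 and 133.9 CPM of Elfn2. The part of the GC slope in these values was not tested.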
